A study of Mus musculus with 3 samples.

Results

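The Skint genes encode small membrane proteins of the butyrophilin-like family, with immunoglobulin domains outside the cell and several membrane-spanning stretches. They were taken here as every row of the deposited tables whose gene name is Skint followed by a number. That rule found 11 genes, Skint1 to Skint11, among 21877 rows present at all ages. RNA was from the whole skin of mice of the inbred albino strain FVB, taken before birth on embryonic day 18.5 (E18.5), 3 days after birth (P3), or in the adult at 10 weeks. The column headings call all samples WT, and no treatment or engineered allele is named. According to the design text 2 biological replicates were used per age, but each table holds 1 averaged FPKM value per gene. FPKM is the number of sequenced fragments per kilobase of transcript, scaled to the library's mapped fragments. With 1 value per age, no difference could be set against a spread between animals, and no p-value is given.

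Skint1, the founding member, is known for its part in the thymus. There it is made by epithelial cells and is needed for the maturation of the gamma delta T cells that later settle in the epidermis as dendritic epidermal T cells, a resident guard of mouse skin. Skint1 and its relatives are also made by keratinocytes, where Skint proteins take part in the exchange between epithelium and resident T cells. FVB mice of a certain supplier are known to carry a premature stop in Skint1 and to lack the usual dendritic epidermal T cells. The labels name the strain without a supplier, and FPKM values do not show coding changes.

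The genes lie side by side on chromosome 4 (mm9, 111592160 to 113917633), a stretch of 2.33 Mb in which the tables list 0 other genes. Their order from the low to the high coordinate is Skint8, Skint7, Skint1, Skint4, Skint3, Skint9, Skint2, Skint10, Skint6, Skint5 and Skint11. In RefSeq 7 are on the plus strand, and Skint9, Skint10, Skint6 and Skint5 on the minus strand. Skint5 and Skint6 span 522 and 482 kb, whereas Skint7 spans 15.3 kb.

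The stretches just before the RefSeq transcription starts resemble each other in parts of the cluster, and 3 chosen sets are printed. Likeness also crosses these sets, and a grouping of the promoters was not tested. Skint2, in none of the sets, was identical with Skint5 at 153 of 220 aligned positions (69.5%). Skint1, in a set with Skint5, aligned with it over 31 positions only. Each is given 5′ to 3′ on the gene's own strand, from RefSeq's GRCm38.p6 sequence of C57BL/6J. FVB sequence was not used here. Over the 250 bases before the start, Skint9 and Skint10 were identical at 99 of 117 aligned positions (84.6%), and Skint10 and Skint11 at 175 of 209 (83.7%). Capitals mark the longest run that all 3 share, 13 bases that 3 of 32817 RefSeq promoter windows hold, counting both strands. This run, like those below, was picked from the windows shown, so these are in its count and the count is no test.
Skint9 (chr4:112434116-112434235, minus strand): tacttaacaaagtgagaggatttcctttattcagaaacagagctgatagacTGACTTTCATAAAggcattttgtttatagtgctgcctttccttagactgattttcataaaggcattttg
Skint10 (chr4:112774908-112775027, minus strand): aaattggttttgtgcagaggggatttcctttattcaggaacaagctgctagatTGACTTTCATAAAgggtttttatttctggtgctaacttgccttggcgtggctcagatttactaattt
Skint11 (chr4:114163264-114163383, plus strand): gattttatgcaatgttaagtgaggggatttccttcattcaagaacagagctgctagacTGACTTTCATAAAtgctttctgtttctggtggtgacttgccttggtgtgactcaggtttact

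Skint1, Skint3, Skint4, Skint5 and Skint6 share another run, of 14 bases, which is in 5 of the 32817 windows. It starts 228 bases before the start in both Skint5 and Skint6, whose windows were identical at 222 of 248 aligned positions (89.5%). Skint4 has 2 RefSeq starts, and the run precedes the second.
Skint1 (chr4:112006019-112006078, plus strand): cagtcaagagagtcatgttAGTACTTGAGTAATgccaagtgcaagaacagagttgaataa
Skint3 (chr4:112232119-112232178, plus strand): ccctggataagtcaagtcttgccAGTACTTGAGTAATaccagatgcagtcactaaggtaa
Skint4 (chr4:112081400-112081459, plus strand): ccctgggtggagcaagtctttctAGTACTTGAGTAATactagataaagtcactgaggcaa
Skint5 (chr4:113999694-113999753, minus strand): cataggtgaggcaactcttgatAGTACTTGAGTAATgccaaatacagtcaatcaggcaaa
Skint6 (chr4:113287164-113287223, minus strand): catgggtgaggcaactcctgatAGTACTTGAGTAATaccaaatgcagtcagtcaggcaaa

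Skint7 and Skint8, neighbours on the same strand, share a run of 51 bases that lies 52 bases before the Skint7 start and 230 before that of Skint8. It is in 2 of the 32817 windows.
Skint7 (chr4:111972847-111972926, plus strand): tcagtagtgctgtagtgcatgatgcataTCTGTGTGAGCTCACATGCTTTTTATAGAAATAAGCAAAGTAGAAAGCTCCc
Skint8 (chr4:111919311-111919390, plus strand): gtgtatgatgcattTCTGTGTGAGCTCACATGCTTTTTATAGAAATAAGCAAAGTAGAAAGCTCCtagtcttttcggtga

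Short motifs were searched on both strands of the 250 bases before each start, 12 Skint windows in all. TATAAA, the TATA box core, was in 7 of the 12 windows and in 12.4% of all RefSeq windows. A match counted at any position and on either strand, so it need not be a placed TATA box. The run shared by Skint7 and Skint8 holds it on the opposite strand, as does the stretch printed for Skint9. Windows of related sequence are not separate observations, so the 2 shares cannot be weighed against each other. TTGCNNAA, a C/EBP-type motif, was in 3 (Skint2, Skint8 and Skint11) against 9.57% of all windows, and TGANTCA, the AP-1 motif, in 1 (Skint11) against 6.75%. GGAATG, the TEAD motif, was in 2 of the windows and in 12.6% of all. A GATA motif, AGATAA, was in 1, against 9.99%. The E-box CACGTG was in 0, against 6.02%. Matches of different motifs overlapped in 0 places in the Skint windows, and a match or its lack says nothing of binding. The Skint windows had a GC content of 34.0% to 42.8%, against a median of 52.4% over all windows.

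Because Skint genes are paralogues, shared reads could blur their separate values. In GENCODE M21 protein-coding transcripts, 16.3% of the 50-base stretches of Skint8 also occur in Skint7, and 10.6% of those of Skint7 in Skint8. For Skint6 and Skint5 the shares are 4.64% and 4.05%, and for Skint2 and Skint3 they are 0.819% and 0.495%. Skint1, Skint4, Skint9, Skint10 and Skint11 share 0 such stretches with another Skint gene, and at 100 bases only Skint7 and Skint8 overlap, by 5.79% and 9.03%. Outside the family, Skint11 has 4.51% of its 50-base stretches in another annotated gene and Skint2 1.29%, while the others have less than either. The read length is not given in the sources used here, and these stretches are of the reference strain. Only identical stretches were counted, so a share of 0 does not exclude reads that align with mismatches. The values of Skint7 and Skint8, and to a lesser degree of Skint5 and Skint6, are thus the hardest to separate, and sums over these pairs and over the family are given for that reason.

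**Figure D1:**
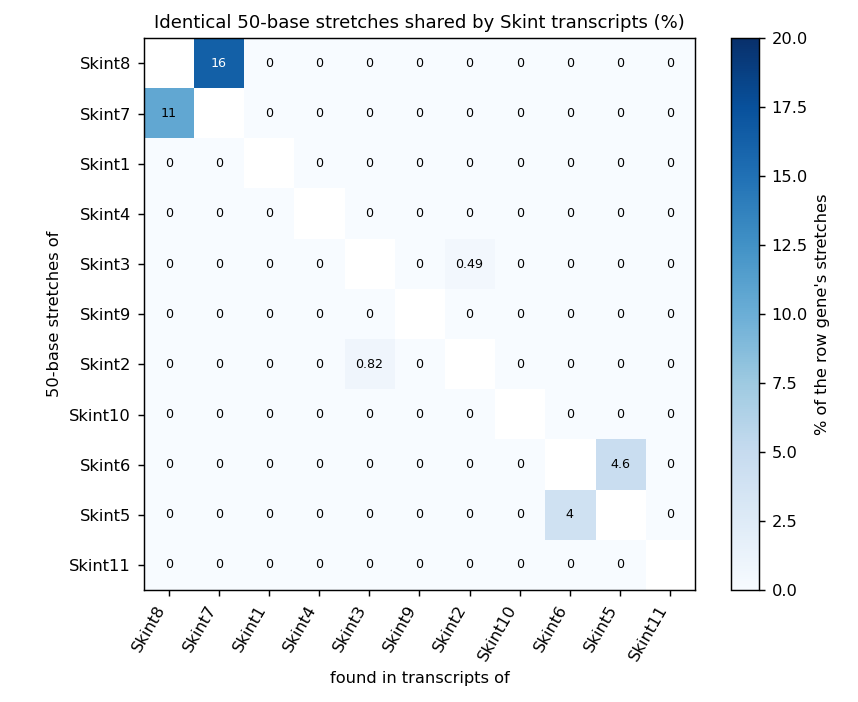
Share of each Skint gene's 50-base transcript stretches (rows, %) that occur identically in the transcripts of another Skint gene (columns), in chromosomal order. The pair Skint8 and Skint7 (16.3% and 10.6%) and the pair Skint6 and Skint5 (4.64% and 4.05%) carry nearly all the overlap.

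The 11 genes summed to 27.9 FPKM before birth, to 57.2 FPKM at P3 and to 121 FPKM in the adult. On the log2(FPKM + 1) scale the sum was thus higher by 1.01 at P3 than at E18.5, by 1.07 at 10 weeks than at P3, and by 2.08 over the whole interval. The 2 single steps lie at the 2-fold threshold (1 on this scale) and fall just under it with each of the 3 other scalings (0.80 to 0.98 and 0.96 to 0.99). In whole skin, fewer cells of a type and less RNA per cell cannot be told apart, and this holds for every level given here. Without Skint10 the sum was 20.7, 41.4 and 53.4 FPKM, so that the step from P3 to 10 weeks was 0.36 in place of 1.07. Skint10 made up 25.9%, 27.6% and 56.0% of the sum at the 3 ages. Skint2 held 28.9% and 33.4% at E18.5 and P3 but 6.92% at 10 weeks, and was the leading gene at both early ages.

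**Figure D2:**
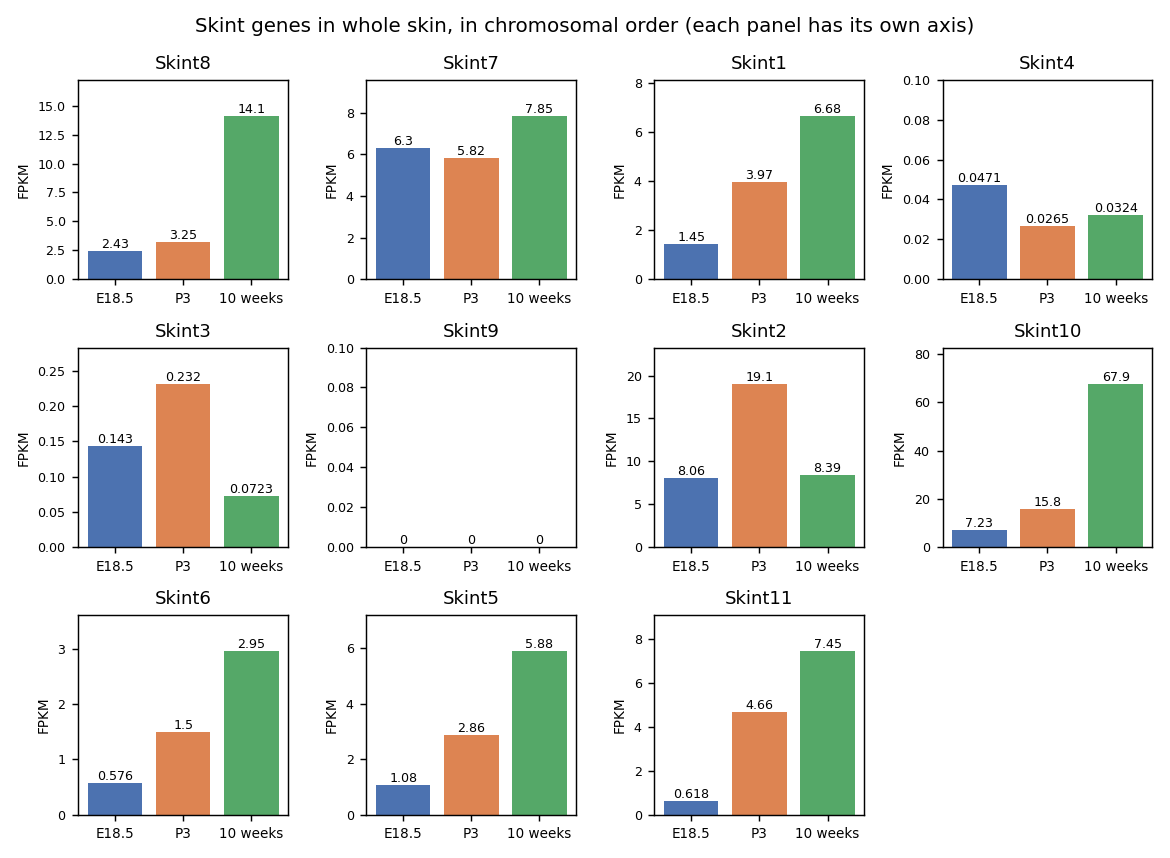
FPKM of each Skint gene at E18.5, P3 and 10 weeks, 1 averaged value per bar, in chromosomal order and with a separate linear axis per panel. Of the 8 genes that reached 1 FPKM, 7 were highest at 10 weeks, and Skint2 was highest at P3 (19.1 FPKM).

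A level of 1 FPKM at any age was reached by 8 of the 11 genes, and these were compared: Skint1, Skint2, Skint5, Skint6, Skint7, Skint8, Skint10 and Skint11. Levels increased from each age to the next in 6 of the 8, a course that 18.6% of all genes compared also had. None was highest at E18.5. Skint10 stood at 7.23 FPKM before birth, 15.8 FPKM at P3 and 67.9 FPKM in the adult. Its differences were 1.03, 2.04 and, from E18.5 to 10 weeks, 3.06, the largest of the 8 on this scale, and it moved from rank 8218 to rank 1419 among all genes by FPKM. Skint11, with a related promoter, stood at 0.618, 4.66 and 7.45 FPKM. With a pseudocount of 0.1 the order turns, at 3.39 for Skint11 and 3.21 for Skint10 from E18.5 to 10 weeks. Most of its difference lay between E18.5 and P3 (1.81) and less after it (0.58). The 2 genes thus reached their adult levels by different steps, Skint11 mainly between E18.5 and P3 and Skint10 mainly after P3. This contrast is one of size only, since 1 value per age allows no test. The step from E18.5 to P3 also goes from a male to a female pattern (Xist at 0.0433 and 64.6 FPKM). Age and sex cannot be told apart in it.

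Skint2 followed another course than the other 7. It was at 8.06 FPKM before birth, 19.1 FPKM at P3 and 8.39 FPKM in the adult. It was therefore higher at P3 than before birth (1.15) and lower again in the adult (-1.10), with the levels at the ends differing by 0.05. At P3 it was the highest of the family, ahead of Skint10, and at 10 weeks the ratio of Skint10 to Skint2 was 8.09, after 0.897 at E18.5 and 0.826 at P3.

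Skint1, the gene named for thymic selection, was at 1.45 FPKM before birth, 3.97 FPKM at P3 and 6.68 FPKM in the adult. Its difference was 1.02 from E18.5 to P3, 0.63 from P3 to 10 weeks and 1.65 over the interval. It was thus detected in skin at each age but was never among the leading members, with 5.20% to 6.95% of the summed FPKM.

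Skint5 stood at 1.08, 2.86 and 5.88 FPKM, and Skint6 at 0.576, 1.50 and 2.95 FPKM. Skint5 differed by 0.90, 0.83 and 1.73 in the 3 comparisons, and Skint6 by 0.66, 0.66 and 1.33. Neither step alone passed 2-fold on this scale, which understates changes of low genes, while the whole interval did for both. The ratio of Skint5 to Skint6 was 1.87, 1.91 and 1.99 at the 3 ages, so that this pair kept close to a fixed proportion. Both shared reads and similar promoters are known for the pair, and the part of either in this proportion was not tested. Skint10 and Skint11, also with similar promoters, had ratios of 11.7, 3.38 and 9.12. The further values are again of Skint5 and Skint6. Their sum was 1.65, 4.36 and 8.83 FPKM, with differences of 1.02, 0.87 and 1.89. With a pseudocount of 0.1 in place of 1, both genes pass 2-fold from E18.5 to P3, by 1.33 and 1.24.

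Skint7 and Skint8, the pair with the longest shared sequence, did not keep such a proportion. Skint7 was at 6.30, 5.82 and 7.85 FPKM, and its differences of -0.10, 0.38 and 0.28 all stayed under 2-fold. Skint8 was at 2.43, 3.25 and 14.1 FPKM, with differences of 0.31, 1.83 and 2.14. The ratio of Skint8 to Skint7 was 0.386, 0.558 and 1.80, so that the order of the pair turned between P3 and 10 weeks. Their sum, which depends less on how reads were divided between them than either value does, was 8.73, 9.07 and 22.0 FPKM, with differences of 0.05, 1.19 and 1.24.

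The remaining 3 genes, Skint4, Skint3 and Skint9, stand next to each other in the cluster (111754075 to 112106590, 353 kb) and were at or near 0 at every age. Skint3 was at 0.143, 0.232 and 0.0723 FPKM and Skint4 at 0.0471, 0.0265 and 0.0324 FPKM. Skint9 was listed at 0 at all ages. The tables' status column marks these 3 genes, and no other Skint gene, as not tested at every age. Their flanking members, Skint1 and Skint2, were at 1.45 FPKM or more throughout. Counting identical stretches only, Skint9 and Skint4 share 0 of their 50-base transcript stretches with another Skint gene, and Skint3 0.495%. Similar promoters stood before genes of very different level: Skint9 was listed at 0 and Skint10 reached 67.9 FPKM with 84.6% identity over their aligned stretch, and Skint3 and Skint4 hold the same 14-base run as Skint1, Skint5 and Skint6. Whether the FVB genome differs from the reference in this interval was not tested.

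**Figure D3:**
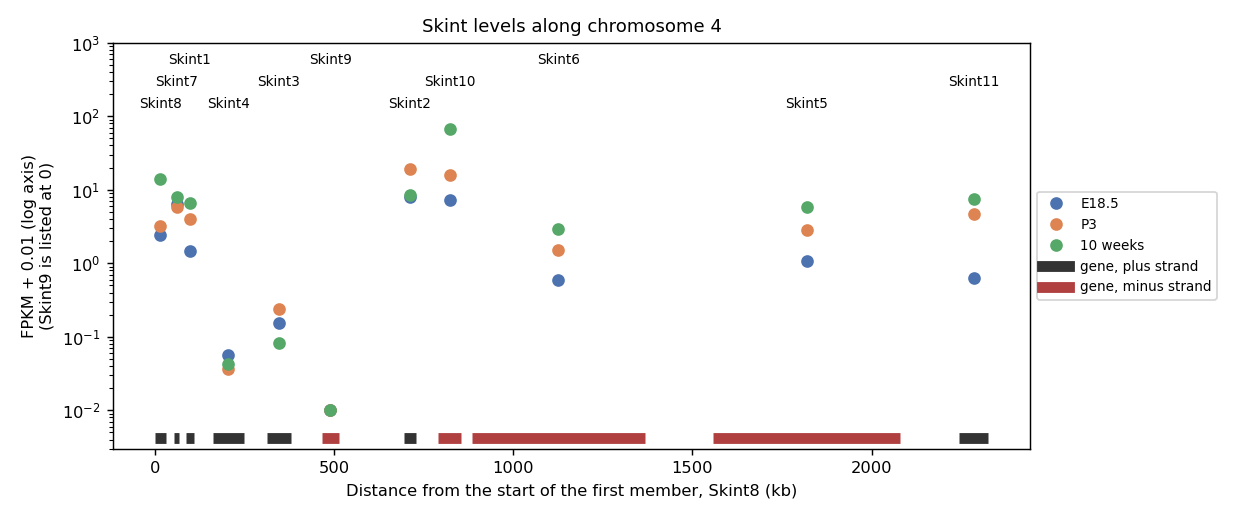
FPKM + 0.01 of each Skint gene (log axis) at the 3 ages against distance in kb from the start of Skint8, with gene spans drawn at the foot, dark for the plus and red for the minus strand. The neighbouring Skint4, Skint3 and Skint9 lie below 0.24 FPKM at each age, between Skint1 and Skint2, which lie above 1 FPKM.

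Between E18.5 and P3, 4 of the 8 compared members went up by 2-fold or more (Skint1, Skint2, Skint10 and Skint11) and 0 down, where 9.56% of all 14653 genes compared were higher and 9.42% lower (1401 and 1380 genes, or 1101 and 1839 with the upper-quartile scaling). The median over the 8 was 0.96, against 0.03 over all genes. Skint1 and Skint10 were barely past the threshold. With the ages scaled on the median of ratios, 2 of the 8 were higher, with the upper quartile 1, and with a pseudocount of 5, which mutes low genes, 0. With a pseudocount of 0.1, 6 of the 8 were higher, Skint5 (1.33) and Skint6 (1.24) among them. At 10 weeks against P3, 2 were higher (Skint8 and Skint10) and 1 lower (Skint2), against 19.8% higher and 9.98% lower of all genes, so that the share of 25.0% higher is near the background. The median was 0.64, and that of all genes 0.14. At 10 weeks against E18.5, 6 of 8 were higher and 0 lower, against 16.1% and 6.92% of all genes (2358 and 1014 genes, or 1788 and 1348 with the upper-quartile scaling), with medians of 1.69 and 0.22. With a pseudocount of 5, 3 of the 8 were higher over this interval, Skint8, Skint10 and Skint11. The 3 comparisons share their values pairwise and are not separate observations.

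Skint RNA is known from keratinocytes, and whole skin held different proportions of tissues at the 3 ages. The basal keratins Krt5 and Krt14, which form the filaments of dividing keratinocytes, had 1058 and 952 FPKM before birth, 2638 and 2439 FPKM at P3, and 816 and 646 FPKM in the adult. Per 100 FPKM of Krt14, the Skint sum was 2.94 before birth, 2.34 at P3 and 18.8 in the adult. Per 100 FPKM of Krt5 it was 2.64, 2.17 and 14.9. From E18.5 to P3 the sum thus did not outpace these keratins, whereas from P3 to 10 weeks the ratio to Krt14 was 8.01 times as large. Against the median FPKM of 11 basal keratinocyte genes, taken anew at each age, the sum was 1.53 times as large at P3 as at E18.5. It was 3.08 times as large at 10 weeks as at P3, so the direction of the first step turns with the reference chosen. That median was 30.1, 40.2 and 27.8 FPKM and fell on another gene at E18.5 than at the later ages. Gene by gene, the median difference of this list from E18.5 to P3 was 0.94, beside 1.01 for the sum. Relative to Trp63, the gene of the basal-cell factor p63, the same ratios were 1.07 and 3.96, and relative to Epcam, an epithelial surface protein of hair follicles and Langerhans cells, 0.649 and 3.15. The size of the second step depends on the reference as well. Of the 11 basal genes, only Krt15 and Dst were higher at 10 weeks than at P3, by 0.42 and 0.73. Relative to them the second step of the sum was smaller than against the references above, and its ratio was not computed.

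Member by member, the ratio to Krt14 was larger at 10 weeks than at P3 for all 8 compared genes, from 1.66 times for Skint2 to 16.3 times for Skint10 and 16.4 times for Skint8. Against the median of the basal list, Skint2 was instead 0.637 times as large at 10 weeks as at P3. From E18.5 to P3 the ratio to Krt14 lay between 0.361 times (Skint7) and 2.94 times (Skint11). Skint1, Skint5 and Skint6 kept pace with Krt14 in that step, at 1.07, 1.04 and 1.01 times. Against the median of the basal list, which fell on different genes at these ages, Skint1, Skint5 and Skint6 were 2.04, 1.99 and 1.94 times as large at P3 as at E18.5. Skint11 was 5.64 times as large.

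**Figure D4:**
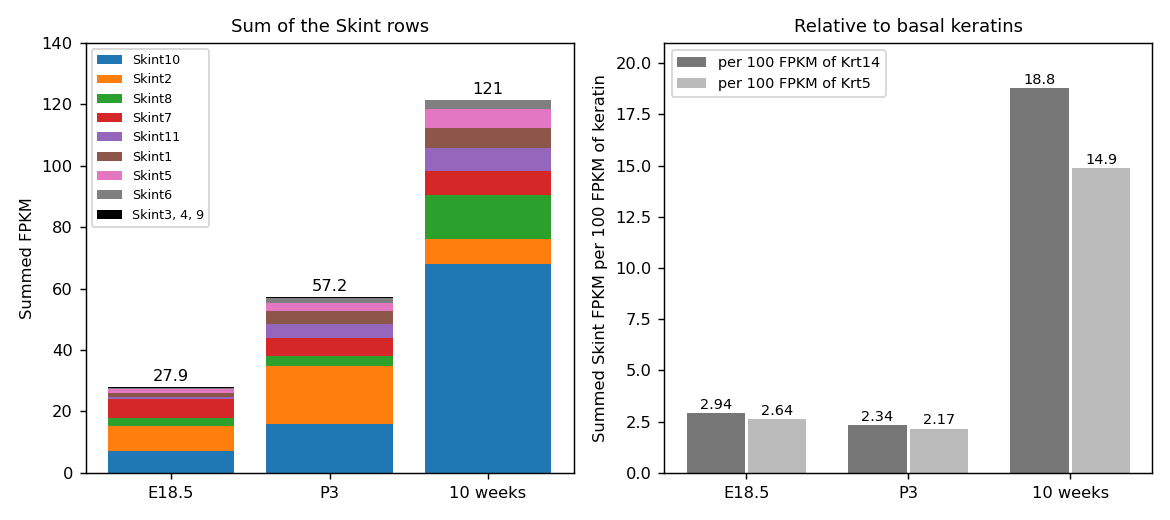
Left, summed FPKM of the Skint genes at each age, stacked by gene. Right, the same sum per 100 FPKM of Krt14 or Krt5. The sum goes from 27.9 to 57.2 to 121 FPKM, and relative to both keratins it is lowest at P3 and highest at 10 weeks.

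Keratinocyte marker lists took another course than most Skint genes. Of 11 basal genes, 4 went up by 2-fold or more from E18.5 to P3 and 4 were lower at 10 weeks than at P3 (medians 0.94 and -0.71). Over all genes compared, 9.56% were higher and 9.42% lower in the first step, and 19.8% and 9.98% in the second. Of the suprabasal genes, which mark differentiating layers, 9 of 10 with a value were higher and then 9 of 10 lower (medians 1.74 and -1.63), and of the cornified-layer genes 7 of 7 and 7 of 7 (medians 2.53 and -3.49). Skint2 alone among the compared Skint genes was also higher at P3 and lower at 10 weeks. The list of fibroblast genes was lower at P3 in 5 of 5 cases (median -1.45) and higher at 10 weeks than at P3 in 3 of 5 (median 2.13). Skeletal muscle genes were at a summed 3847, 319 and 15388 FPKM. The part of tissue composition in the Skint values was not tested.

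The partners of Skint proteins in skin are T cells, and most of their marker transcripts were low before adulthood. Of 22 listed markers of T cells and dendritic epidermal T cells 18 were matched, and the gamma delta receptor genes were not among the names matched. From E18.5 to P3, 0 of 18 were higher and 2 lower (median -0.05), against 9.56% and 9.42% of all genes, so that the count lower is near the background. From P3 to 10 weeks, 15 were higher and 0 lower (median 1.85), against 19.8% and 9.98% of all genes. The summed level of the markers was 116, 54.2 and 377 FPKM, most of it from Fcer1g and Thy1, which other skin cells express as well. Cd7, a surface protein of T and natural killer cells, was at 0.477, 0.150 and 18.6 FPKM. Cd3g, a chain of the T cell receptor complex, was at 0.437, 0.663 and 16.6 FPKM, and Cd3e, another such chain, at 0.0671, 0.0824 and 3.78 FPKM. Klrk1, the receptor NKG2D of epidermal T cells and natural killer cells, was at 0.0347, 0.0430 and 1.62 FPKM. The integrin chain Itgae, which holds T cells in epithelium, was at 0.305, 0.277 and 3.37 FPKM. Of 5 matched alpha beta T cell markers, 2 were compared, Cd4 and Cd5, and they went opposite ways. Cd4, the only 1 past 1 FPKM at 10 weeks, was higher than at P3 by 1.26. Cd5 was at 0.668, 1.32 and 0.479 FPKM, with a difference of -0.65 in that step. Cd8a reached 0.386 FPKM. At P3 the Skint sum was 57.2 FPKM and that of the 18 T cell markers 54.2 FPKM. All but 5 of these markers were then below 1 FPKM, as were Skint3, Skint4 and Skint9 among the Skint genes.

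Factors of the gamma delta programme are expressed in other skin cells too, and 2 of 8 compared were higher and 1 lower at P3 than before birth, against 9.56% and 9.42% of all genes. Egr3, which Skint1 is known to engage in developing gamma delta T cells, was at 15.8, 57.7 and 26.0 FPKM, higher at P3 (1.80) and lower at 10 weeks (-1.12). Egr2, its relative, was at 3.02, 22.9 and 31.0 FPKM. Zbtb16, the factor PLZF of innate-like T cells, was at 3.94, 0.629 and 6.99 FPKM. Il17a, a cytokine gene of some gamma delta T cells, was listed at 0 at E18.5 and 10 weeks and at 0.00254 FPKM at P3.

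Other keratinocyte signals to epidermal T cells did not share a single course. Ccl27a, the keratinocyte chemokine read by Ccr10, was at 19.2, 40.1 and 79.6 FPKM. Cxadr, whose product binds the costimulatory receptor JAML, was at 24.1, 54.4 and 32.8 FPKM, and Plxnb2, the partner of CD100, at 29.7, 50.5 and 38.6 FPKM. The cytokines Il7 and Tslp were highest at 10 weeks, with 0.128, 0.115 and 2.73 FPKM and with 0.794, 0.394 and 5.93 FPKM. Cd1d1, a lipid-presenting molecule that Langerhans cells make as well, was at 9.90, 3.89 and 31.9 FPKM. Of the 8 list members compared, 2 were higher and 1 was lower at P3 than before birth, and 3 were higher and 1 lower at 10 weeks than at P3. Over all genes the shares were 9.56% and 9.42% in the first step and 19.8% and 9.98% in the second, so that a count of 1 of 8 is near the background. Over the whole interval 4 were higher and 0 lower (median 1.29), against 16.1% and 6.92% of all genes.

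**Figure D5:**
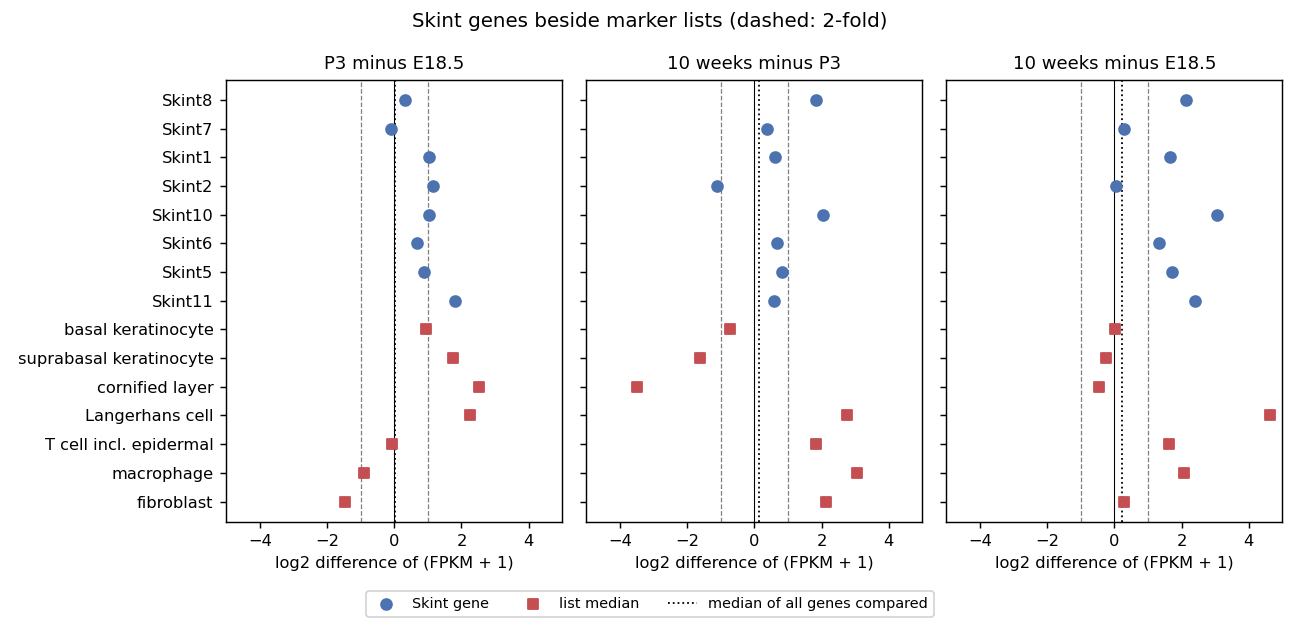
log2 differences of (FPKM + 1) between ages for the 8 compared Skint genes (circles) and the medians of fixed marker lists (squares), with dashed lines at 2-fold and a dotted line at the median of all genes compared. At 10 weeks against P3 the keratinocyte lists lie left of 0 and all Skint genes except Skint2 lie right of it.

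Most other butyrophilin family genes were low in skin, though single ones lay within the range of the Skint genes. Btnl9 at E18.5 was between Skint7 (6.30 FPKM) and Skint10 (7.23 FPKM). Btnl2 at 10 weeks was between Skint6 (2.95 FPKM) and Skint5 (5.88 FPKM). All 10 genes of the butyrophilin list were matched, 3 by an older symbol, and 3 reached 1 FPKM. Btnl9 was at 6.92, 1.99 and 3.92 FPKM, Btnl2 at 0.460, 0.158 and 4.97 FPKM, and Btn1a1, a milk-fat protein gene, at 0.0226, 0.219 and 1.52 FPKM. The summed FPKM over the butyrophilin list was 7.49, 2.39 and 10.7, below the Skint sum at each age. Unlike the Skint sum it was lowest at P3.

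The genes next to the cluster on either side had other courses. Slc5a9, a sugar transporter gene that precedes Skint8, was at 3.15, 4.73 and 4.20 FPKM, and Spata6, the next, at 6.55, 4.22 and 10.1 FPKM. Agbl4 lay below 0.01 FPKM. Beyond Skint11, Gm12824 was at 4.03, 2.90 and 5.69 FPKM, Gm12830 at or below 0.0119, and Foxd2, a forkhead gene, at 0.523, 0.309 and 0.710. Of these 6, Agbl4, Gm12830 and Foxd2 stayed under 1 FPKM and were not compared. Among Slc5a9, Spata6 and Gm12824, only Spata6 passed 2-fold in a comparison, at 10 weeks against P3 (1.09).

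The genes with the course most like that of the Skint sum were sought among 12067 genes at 1 FPKM or more at every age, by the root mean square distance of centred log2(FPKM + 1) values over the 3 ages. Nearest were Il6ra (distance 0.03; 5.41, 12.2 and 27.4 FPKM), Ccl27a (0.04), Rab11fip4 (0.04), Thbs4 (0.05) and Slco2a1 (0.05). Nearest to Skint10 alone were Paqr7 (0.07; 14.4, 29.9 and 115 FPKM), BC064078 (0.10), Xdh (0.11), Fbxo32 (0.12) and H2-DMb2 (0.13). With 3 ages per gene a small distance is easily met: 12 genes lay within 0.1 of the sum and 1 within 0.1 of Skint10.

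The ages also differed in genes outside the cluster that bear on how they compare. Xist, the RNA of the inactive X chromosome, was at 0.0433, 64.6 and 73.0 FPKM, and the Y-linked Ddx3y at 24.1 and 0.0218 FPKM and then listed at 0. Comparisons with E18.5 are therefore between a male and a female pattern, and sex and age cannot be told apart there. The comparison of P3 with 10 weeks, both with the female pattern, holds the differences of Skint8 (1.83), Skint10 (2.04) and Skint2 (-1.10). Langerhans cell markers were higher in 5 of 7 cases at P3 (1 was lower), against 9.56% and 9.42% of all genes. At 10 weeks against P3, 5 of 7 were higher, against 19.8% of all genes. Cd207, their defining lectin, was at 0.0146, 3.82 and 24.3 FPKM. The Langerhans list therefore climbed in both steps, as the Skint sum did, and the part of any such cell type in the Skint values was not tested. Of 9 thymic epithelium and thymocyte markers, Aire, Rag1, Rag2 and Dntt were below 0.08 FPKM at all ages. Psmb11, Prss16 and Ptcra lay between 0.214 and 0.664 FPKM, and the chemokine gene Ccl25 was at 1.84, 1.71 and 1.50 FPKM. The part of thymus RNA in the Skint values was not tested. Foxn1, needed in thymic epithelium but also active in hair follicles, was at 1.80, 11.4 and 2.05 FPKM.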

How the data were processed

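Whole-skin RNA of FVB mice was measured by RNA sequencing at 3 ages. The authors deposited FPKM values, 1 for each gene at each age, which the file headers call averages. TopHat2 2.0.7, Cufflinks 2.1.1 and the build mm9 are named in the submitters' processing notes. Which annotation, read number and length, strand setting and handling of multiply matching reads were used is not given in the sources used here, so depth is unknown and no interval can be given.

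Values listed at 0 with a failure mark (3 at E18.5, 7 at P3, 0 at 10 weeks, none a Skint gene) were left out. A difference is the later minus the earlier log2(FPKM + 1), taken in the 14662 genes that reach 1 FPKM at any age. A gene is called at a difference of 1 or more, that is 2-fold. With 1 value per age there is no test. Table starts were raised by 1, because end minus start equalled the RefSeq length in 7 of the 11 Skint rows and end minus start plus 1 in 0. RefSeq and GENCODE M21 sequences are of GRCm38, and no coordinate was carried between builds. The reliability of the calls was not tested. The scripts ran in Python 3.11.15 with pandas 2.3.3, Biopython 1.88 and matplotlib 3.10.9. Alternatives were pseudocounts of 0.1 and 5, 3 other scalings, no minimum or a minimum of 5 FPKM, and sums without the highest rows. All Skint rows are named. From each list up to 6 members are named, those with the largest difference or the highest level. Cd3e, Klrk1, Itgae, Cd8a, Il17a, Aire, Rag1, Rag2, Dntt, Cd207, Cd276 and the sex-linked genes fall outside this rule and were named for their known roles after their values were seen. The members, lists and motifs were chosen with earlier results of these data known, and the sum without Skint10 and Skint2 was added after the values were seen.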

Additional observations from a re-analysis of the deposited data

How the results depend on the processing

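No paired analysis was possible because each age has 1 deposited value per gene, and no replicate could be left out. Scaling on the median of ratios shifts log2 ratios of FPKM by -0.12 from E18.5 to P3, -0.10 from P3 to 10 weeks and -0.22 over both. The Skint sum kept its direction under every alternative run and stayed past 2-fold from E18.5 to 10 weeks. From E18.5 to P3 it fell under 2-fold with a pseudocount of 5 (0.92), the median of ratios (0.89), the upper quartile (0.80), TPM scaling (0.98), without Skint10 (0.97) and without Skint10 and Skint2 (0.77). From P3 to 10 weeks it did so with the median of ratios (0.97), the upper quartile (0.99), TPM scaling (0.96), without Skint10 (0.36) and without both (0.98). Among the 8 compared members, a pseudocount of 0.1 gave 6 higher at P3 than before birth, a pseudocount of 5 left 0 higher at P3 than before birth, 0 lower from P3 to 10 weeks and 3 higher over both steps, the median of ratios 2 and the upper quartile 1 higher at P3. Over all genes, a pseudocount of 5 gave 842 higher and 626 lower from E18.5 to P3, 1596 and 898 from P3 to 10 weeks, and 1274 and 561 over both, and a pseudocount of 0.1 gave 2155 lower from E18.5 to P3. The sign differed from the reported one in 8 of 333 list medians. Past 2-fold as reported were 2 of these, each resting on few genes. Thymic markers from E18.5 to P3 were at 1.04 as reported, over Foxn1 (2.15) and Ccl25 (-0.07) only, and at -0.017 with no minimum. Butyrophilins over both steps were at 1.30 as reported, over 3 genes, and at -0.69 at a minimum of 5 FPKM, which left Btnl9 alone. The other 6 were small as reported, among them basal keratinocytes over both steps (0.03), which lay at -0.18, -0.26 and -0.11 under the 3 scalings. Of 165 values for single Skint genes, 13 fell under and 3 went past 2-fold. In 3 the sign turned, all for Skint2 over both steps (0.05 as reported), with the median of ratios (-0.14), the upper quartile (-0.22) and TPM scaling (-0.07). No interval, test or depth limit could be given for any value.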

Other observations

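The B7 family, costimulatory relatives of the butyrophilins, was higher in the adult than at P3 in 4 of the 6 members compared and lower in 0, against 19.8% and 9.98% of all genes. Cd86, found on antigen-presenting cells, was at 3.28, 1.40 and 10.1 FPKM at E18.5, P3 and 10 weeks, and Icosl at 4.63, 2.72 and 10.8 FPKM. Vtcn1, an inhibitory member, was highest at P3, with 0.111, 2.70 and 1.05 FPKM. Cd276 was at 9.61, 9.26 and 6.21 FPKM, with no difference past 2-fold. Macrophage markers were higher at 10 weeks than at P3 in 4 of 4 cases, and their part in the B7 values was not tested.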
